A study of Mus musculus with 8 samples.

Results

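Potassium channel genes were described in cortex and hippocampus from wild-type (WT) mice and from Tet1 knockout (KO) mice. The members were the genes whose name on the array begins with Kcn followed by a lower-case letter, each represented by its brightest probe. There were 93 such genes among 23688 gene symbols on the array, and 81 of them were among the 16773 genes bright enough to test. They comprise 40 pore-forming subunits of voltage-gated channels, 13 partner proteins of these, 14 inward rectifiers, 14 two-pore-domain channels and 12 calcium- or sodium-activated channels and their subunits. Total RNA came from snap-frozen tissue of naive, untreated mice on a 129 C57BL6 background, and their age was not given in the sources used here. Samples fell into 4 groups, which were WT cortex, Tet1 KO cortex, WT hippocampus and Tet1 KO hippocampus, with 2 samples in each. All WT samples carried the dye Cy3 and all KO samples Cy5, and each of the 4 arrays held 1 WT and 1 KO sample of the same tissue and number, so that dye and genotype cannot be told apart. The KO is labelled only as Tet1 KO, and nothing in the labels ties a replicate to an animal of its own. The p-values thus measure how far these samples spread, and that spread may be technical.

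Potassium channels let potassium leave the cell along its gradient, which holds the resting potential of neurons, ends the action potential and sets how often a cell fires. The voltage-gated subunits assemble as tetramers that open on depolarisation, and electrically silent subunits join them without forming channels alone. Inward rectifiers and two-pore-domain channels stabilise the resting potential, and the calcium- and sodium-activated channels open when these ions enter the cell. Tet1 is a dioxygenase that oxidises 5-methylcytosine, which in mammals lies mostly at CG dinucleotides.

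The scanner software marked 49.7% to 51.7% of the Cy3 spots and 66.6% to 67.2% of the Cy5 spots as well above background, and 0 as saturated. The brightest Tet1 probe was lower in KO by 0.19 ± 0.07 (SE) on the log2 scale in cortex (adjusted p = 0.224, limma with Benjamini-Hochberg adjustment over all genes) and by 0.17 ± 0.07 in hippocampus (adjusted p = 0.234). Another Tet1 probe, well above background in all 8 samples, was lower in KO on all 4 arrays, with ratios of -0.30 to -0.18. The remaining probe, well above background in 4 samples, was higher in KO on all 4 arrays, with ratios of 0.15 to 0.26. The deleted part of Tet1 is not stated in the labels, so these probes do not check the genotype. Of 9 measured cortex markers 8 were higher in WT cortex than in WT hippocampus, and all 12 hippocampus markers were lower, 11 of them with an adjusted p under 0.05. The 10 measured striatum markers were also all called higher in cortex, with a median log2 difference of 2.60 in WT and 2.30 in KO. Their summed log2 signal was 17.2 to 17.7 in the cortex samples and 14.6 to 15.1 in the hippocampus samples.

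The stretches of DNA before the start of members that the results turn on are shown first, because CG dinucleotides are where Tet1 acts. Each is the 250 bases before the start of the gene in RefSeq (build GRCm38.p6), read 5′ to 3′ on the strand of the gene, with CG in capitals. The first 3 belong to genes called higher in cortex, in WT alone for Kcnf1. The others belong to genes called between KO and WT in the mean of both tissues.
Kcnh4: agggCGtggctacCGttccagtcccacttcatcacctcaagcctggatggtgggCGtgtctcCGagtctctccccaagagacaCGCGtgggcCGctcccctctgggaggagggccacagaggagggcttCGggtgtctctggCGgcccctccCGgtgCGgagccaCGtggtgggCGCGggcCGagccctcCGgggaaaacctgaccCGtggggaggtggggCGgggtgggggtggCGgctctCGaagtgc
Kcnh5: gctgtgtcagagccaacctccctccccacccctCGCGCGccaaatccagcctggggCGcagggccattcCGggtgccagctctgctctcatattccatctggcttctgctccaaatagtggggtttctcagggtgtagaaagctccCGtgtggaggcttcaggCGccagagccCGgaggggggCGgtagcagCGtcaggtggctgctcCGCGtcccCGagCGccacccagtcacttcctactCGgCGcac
Kcnf1: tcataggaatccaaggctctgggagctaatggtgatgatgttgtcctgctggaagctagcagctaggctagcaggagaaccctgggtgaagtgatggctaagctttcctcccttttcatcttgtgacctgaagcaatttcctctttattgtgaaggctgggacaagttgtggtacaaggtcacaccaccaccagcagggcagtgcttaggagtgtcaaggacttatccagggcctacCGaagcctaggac
Kcna4: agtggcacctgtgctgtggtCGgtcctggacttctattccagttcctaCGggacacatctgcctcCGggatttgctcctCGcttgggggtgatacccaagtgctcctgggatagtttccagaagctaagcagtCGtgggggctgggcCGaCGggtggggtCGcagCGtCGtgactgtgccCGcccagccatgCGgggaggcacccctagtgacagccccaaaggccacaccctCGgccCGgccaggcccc
Kcnd2: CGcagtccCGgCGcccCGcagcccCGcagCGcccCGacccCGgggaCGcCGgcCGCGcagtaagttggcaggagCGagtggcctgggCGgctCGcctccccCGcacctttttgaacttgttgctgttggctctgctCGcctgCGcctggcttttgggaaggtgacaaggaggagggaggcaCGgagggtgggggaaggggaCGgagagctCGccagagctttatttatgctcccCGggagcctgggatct
Kcnh7: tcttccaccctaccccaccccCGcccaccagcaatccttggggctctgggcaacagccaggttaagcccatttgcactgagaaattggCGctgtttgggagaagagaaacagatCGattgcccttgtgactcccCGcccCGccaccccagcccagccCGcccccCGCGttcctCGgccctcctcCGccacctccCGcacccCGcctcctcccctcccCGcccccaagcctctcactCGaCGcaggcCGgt
Kcne4: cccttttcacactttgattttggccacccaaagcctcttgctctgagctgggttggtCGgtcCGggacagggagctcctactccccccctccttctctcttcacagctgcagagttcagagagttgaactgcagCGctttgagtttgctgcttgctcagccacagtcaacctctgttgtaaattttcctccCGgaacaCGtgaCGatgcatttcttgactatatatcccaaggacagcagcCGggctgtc
These stretches lie at chr11:100759779-100760028 on the minus strand for Kcnh4, chr12:75177333-75177582 on the minus strand for Kcnh5, and chr12:17176889-17177138 on the minus strand for Kcnf1. Those of the second set lie at chr2:107290339-107290588 on the plus strand for Kcna4, chr6:21215096-21215345 on the plus strand for Kcnd2, chr2:63184288-63184537 on the minus strand for Kcnh7, and chr1:78816661-78816910 on the plus strand for Kcne4. Kcnd2 has 22 CG in the bases shown, Kcnh4 has 20, Kcnh5 and Kcnh7 have 16 each, Kcna4 has 14, Kcne4 has 7 and Kcnf1 has 1. The printed genes thus span the range from dense to nearly free of CG.

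Over the whole family, 93 windows of 300 bases (250 before and 50 after a gene's start) matched 68 members by symbol. Their median ratio of observed to expected CG was 0.434, against 0.384 over all 32851 windows of the table. A window rich in CG (ratio over 0.6 and more than 50% G and C) was found for 28.0% of the members' windows and for 33.3% of all windows. It was found for 9 of the 18 windows (13 genes) of members higher in cortex in both genotypes. Of the 5 windows (3 genes) of members lower in cortex in both it was found for 2, and of the 5 windows (5 genes) of members called between KO and WT for 3. Windows of 1 gene are not separate genes, so these counts rest on few genes. Of 3 motifs searched on both strands, TGACGTCA was in 0 members' windows and in 1.79% of all, TTCAGCACC in 1 (that of Kcnh6) and in 0.371% of all, and TATAAA in 4.3% of the members' windows and 13.6% of all.

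Most of the family was measurable. A spot counted as measured where Feature Extraction marked it well above background, and 58 of the 93 members were so in all 8 samples. Another 23 were so on both arrays of at least 1 group, which is the condition for a test, and 15 of these were not well above background in any WT sample. The number measured on both arrays was 62 in WT cortex and 58 in WT hippocampus, against 80 in KO cortex and 80 in KO hippocampus. This difference runs with the dye, and the median probe was 1.35 to 1.43 times as bright as the median negative control spot for Cy3, and 3.24 to 3.66 times for Cy5. The 12 members left untested were the voltage-gated Kcna10, Kcng3 and Kcnv2, the accessory subunit Kcne1, the inward rectifiers Kcnj1 and Kcnj15, the two-pore-domain Kcnk7, Kcnk16 and Kcnk18, and the calcium-activated Kcnmb3, Kcnn1 and Kcnn4. Of these, 9 were well above background in 0 of the 8 samples.

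Between the tissues, the share of members called was larger than that of all genes, and most of the calls were higher in cortex. In WT, 23 members were higher in cortex and 7 lower at an adjusted p under 0.05, which is 37.0% of the 81 tested, against 15.0% of all genes (7.20% higher and 7.77% lower). In KO, 20 were higher and 7 lower, or 33.3%, against 14.8% of all genes (7.54% higher and 7.29% lower). Among the 58 members well above background in all 8 samples, 44.8% were called in WT and 37.9% in KO, against 15.0% and 15.6% of the 12759 genes measured so. The median log2 difference of the 81 members, cortex minus hippocampus, was 0.10 in WT and 0.10 in KO, and that of all genes was -0.03 and -0.01. The counts rest on both cortex arrays: 8 members were called in WT and 8 in KO without cortex replicate 1, and 9 in WT and 8 in KO without cortex replicate 2. The share of all genes called fell with them, to 4.47% in WT and 3.84% in KO without cortex replicate 1, and to 4.31% and 4.08% without cortex replicate 2. In tissue RNA, fewer cells of a type and less RNA per cell cannot be told apart, and the part of the striatum markers in these differences was not tested.

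Most members called in one genotype were called in the other, and the samples of both lie on the same 4 arrays in different dyes. The tests called 25 members in both WT and KO, 20 of them higher in cortex and 5 lower. Among the rest, Kcnmb4, Kcnab2, Kcnk6 and Kcnf1 were called in WT alone, and Kcne3 and Kcng1 in KO alone, while 49 were called in neither. No member's tissue difference was called different between the genotypes, so a call in 1 genotype alone shows no difference between them. The 20 members higher in cortex in both had WT differences of 0.41 to 1.51. Kcnh7 is among these, though none of its WT samples was well above background. The 5 lower in both were Kcng2, Kcnn2, Kcnk10, Kcnd2 and Kcnj6, with WT differences of -1.50 to -0.40.

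**Figure D1:**
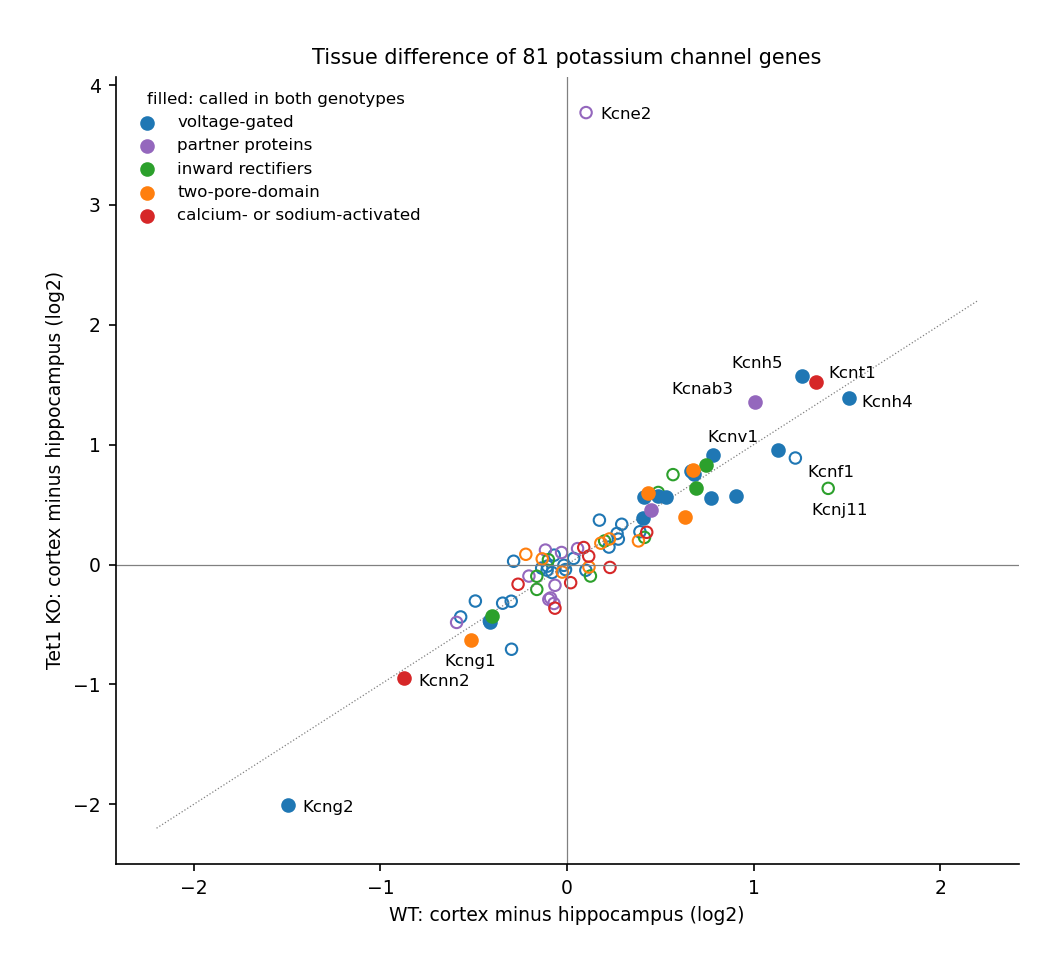
Cortex minus hippocampus on the log2 scale for the 81 tested members, in WT (horizontal axis) and Tet1 KO (vertical axis), coloured by subfamily, with filled points for the 25 called in both genotypes and a dotted line of equal values. Most points lie near that line, Kcnh4, Kcnh5 and Kcnt1 at the upper right and Kcng2 at the lower left, while Kcne2 lies far from it at 0.10 in WT and 3.77 in KO.

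Among called members, voltage-gated pore subunits held the largest differences in both genotypes. Of 37 tested, 13 were higher and 3 lower in WT cortex, and 12 were higher and 3 lower in KO cortex. That is 43.2% and 40.5% called, against 15.0% and 14.8% of all genes. The ether-a-go-go (Kcnh) genes, whose channels activate at voltages near rest, held the largest rise in each genotype, though not all of them were higher in cortex. Kcnh4, of the ELK branch (probe at chr11:100601716-100601775 of mm9), had a normalised log2 signal of 10.22 and 9.95 in WT cortex, 8.51 and 8.64 in WT hippocampus, 10.26 and 9.97 in KO cortex, and 8.63 and 8.83 in KO hippocampus. All 4 cortex samples lay above all 4 hippocampus samples. The difference was 1.51 ± 0.13 (SE, n = 2 samples per group) in WT, or 2.85-fold (adjusted p = 0.000603), and 1.39 ± 0.13 in KO (adjusted p = 0.000859). A second, dimmer Kcnh4 probe, well above background on both arrays of 1 group, gave 0.56 and 0.45. Kcnh3, also of the ELK branch, was at 14.87 and 14.92 in WT cortex, 14.22 and 14.03 in WT hippocampus, 14.67 and 14.73 in KO cortex, and 14.10 and 14.18 in KO hippocampus. It too separated the tissues without overlap, by 0.77 ± 0.09 in WT (adjusted p = 0.00176) and 0.56 ± 0.09 in KO (adjusted p = 0.00687).

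Both EAG genes went the same way. Kcnh5 (probe at chr12:75998266-75998325) was at 9.54 and 9.66 in WT cortex, 8.40 and 8.29 in WT hippocampus, 9.93 and 9.86 in KO cortex, and 8.35 and 8.31 in KO hippocampus. The cortex samples were all higher, by 1.26 ± 0.08 in WT (adjusted p = 0.000192) and 1.57 ± 0.08 in KO (adjusted p = 0.000123). Its relative Kcnh1 was at 8.90 and 9.10 in WT cortex, 8.44 and 7.99 in WT hippocampus, 9.12 and 9.14 in KO cortex, and 8.28 and 8.16 in KO hippocampus. These groups did not overlap either, and the difference was 0.78 ± 0.15 in WT (adjusted p = 0.0140) and 0.91 ± 0.15 in KO (adjusted p = 0.00757). Of the ERG genes, Kcnh7 was higher in cortex by 0.53 ± 0.07 in WT (adjusted p = 0.00399) and by 0.56 ± 0.07 in KO (adjusted p = 0.00309). It was not well above background in any WT sample, so its WT call rests on an unmeasured signal. Kcnh2 differed by 0.17 ± 0.12 in WT and 0.37 ± 0.12 in KO and was called in neither, as was Kcnh6, at 0.27 ± 0.21 and 0.26 ± 0.21. Kcnh8, the remaining ELK gene, was at 6.70 and 6.37 in WT cortex, 6.89 and 6.87 in WT hippocampus, 6.91 and 6.80 in KO cortex, and 7.26 and 7.09 in KO hippocampus. Its cortex samples were the lower ones in each genotype, and its differences of -0.34 ± 0.12 in WT (adjusted p = 0.103) and -0.32 ± 0.12 in KO (adjusted p = 0.124) were not called. Kcnh4 and Kcnh5 kept their calls with any 1 array left out in both genotypes, Kcnh3 lost its WT call without cortex replicate 2 (adjusted p = 0.0534), and Kcnh1 lost both without either cortex array.

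The silent subunits, which modify other voltage-gated channels, split between the tissues. Kcnv1 (chr15:44937912-44937971) was at 12.05 and 12.15 in WT cortex, 11.02 and 10.91 in WT hippocampus, 12.21 and 12.23 in KO cortex, and 11.18 and 11.35 in KO hippocampus. Every cortex sample exceeded every hippocampus sample, and the difference was 1.13 ± 0.09 in WT (adjusted p = 0.000435) and 0.95 ± 0.09 in KO (adjusted p = 0.000875). Kcng2, on chromosome 18, went the other way, with 8.45 and 8.58 in WT cortex, 10.05 and 9.98 in WT hippocampus, 7.90 and 7.94 in KO cortex, and 9.92 and 9.95 in KO hippocampus. It was the most reduced member in cortex in both genotypes, at -1.50 ± 0.07 in WT (adjusted p = 8.83e-05) and -2.01 ± 0.07 in KO (adjusted p = 5.66e-05). Its second probe, well above background in all 8 samples, gave -0.88 and -1.04.

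Kcnf1 (chr12:17179527-17179586) was at 11.53 and 11.76 in WT cortex, 10.12 and 10.72 in WT hippocampus, 12.09 and 11.28 in KO cortex, and 10.93 and 10.66 in KO hippocampus. The tissues did not overlap, but the samples of one group were up to 0.81 apart in KO cortex. The difference was 1.22 ± 0.31 in WT (adjusted p = 0.0436), a call lost without any 1 of the arrays, and 0.89 ± 0.31 in KO (adjusted p = 0.115), and its second probe gave 1.03 and 0.74. Kcns1 was at 9.46 and 9.71 in WT cortex, 9.0 and 8.85 in WT hippocampus, 9.50 and 9.55 in KO cortex, and 8.64 and 8.84 in KO hippocampus, higher in every cortex sample. Its difference was 0.66 ± 0.12 in WT (adjusted p = 0.0114) and 0.78 ± 0.12 in KO (adjusted p = 0.00582), the KO call being lost without either cortex array. Kcng1 was lower in KO cortex by 0.71 on the log2 scale, at -0.71 ± 0.17 (adjusted p = 0.0320), and at -0.30 ± 0.17 in WT (adjusted p = 0.293), and its KO call was also lost without either cortex array.

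In the Shaker (Kcna) family, which forms axonal and A-type channels, Kcna2, Kcna5 and Kcna6 were higher in cortex in both genotypes. The strongest was Kcna5, with 8.06 and 7.81 in WT cortex, 7.15 and 6.91 in WT hippocampus, 7.92 and 7.95 in KO cortex, and 7.27 and 7.46 in KO hippocampus. The WT hippocampus samples were not well above background, so that the WT difference was at least 1.32-fold (measured 0.90 ± 0.13, adjusted p = 0.00486), and in KO it was 0.57 ± 0.13 (adjusted p = 0.0290). The WT call was lost without cortex replicate 1, and a second probe gave 0.39 and 0.17. Such a bound sets the mean of the brighter group against the dim probe itself or, where that is lower, against the dimmest probe well above background on the array, and is open to dye bias. Kcna2 was higher by 0.49 ± 0.08 and 0.57 ± 0.08, and Kcna6 by 0.41 ± 0.08 and 0.56 ± 0.08, in WT and KO. A second Kcna6 probe, also well above background in all 8 samples, gave 0.15 and 0.09, and another, dimmer one gave 0.07 and 0.28. Kcna1, which marks axons, differed by -0.11 ± 0.09 and -0.05 ± 0.09, and Kcna3 and Kcna4 were not called.

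An A-type channel of dendrites was lower in cortex. Kcnd2 was at 13.62 and 13.46 in WT cortex, 14.01 and 13.89 in WT hippocampus, 13.83 and 13.66 in KO cortex, and 14.31 and 14.13 in KO hippocampus. Within each genotype both cortex samples were below both hippocampus samples, by -0.41 ± 0.10 in WT (adjusted p = 0.0378) and -0.48 ± 0.10 in KO (adjusted p = 0.0217). The WT call was lost without any 1 array, and the KO call without cortex replicate 1, cortex replicate 2 or hippocampus replicate 1.

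**Figure D2:**
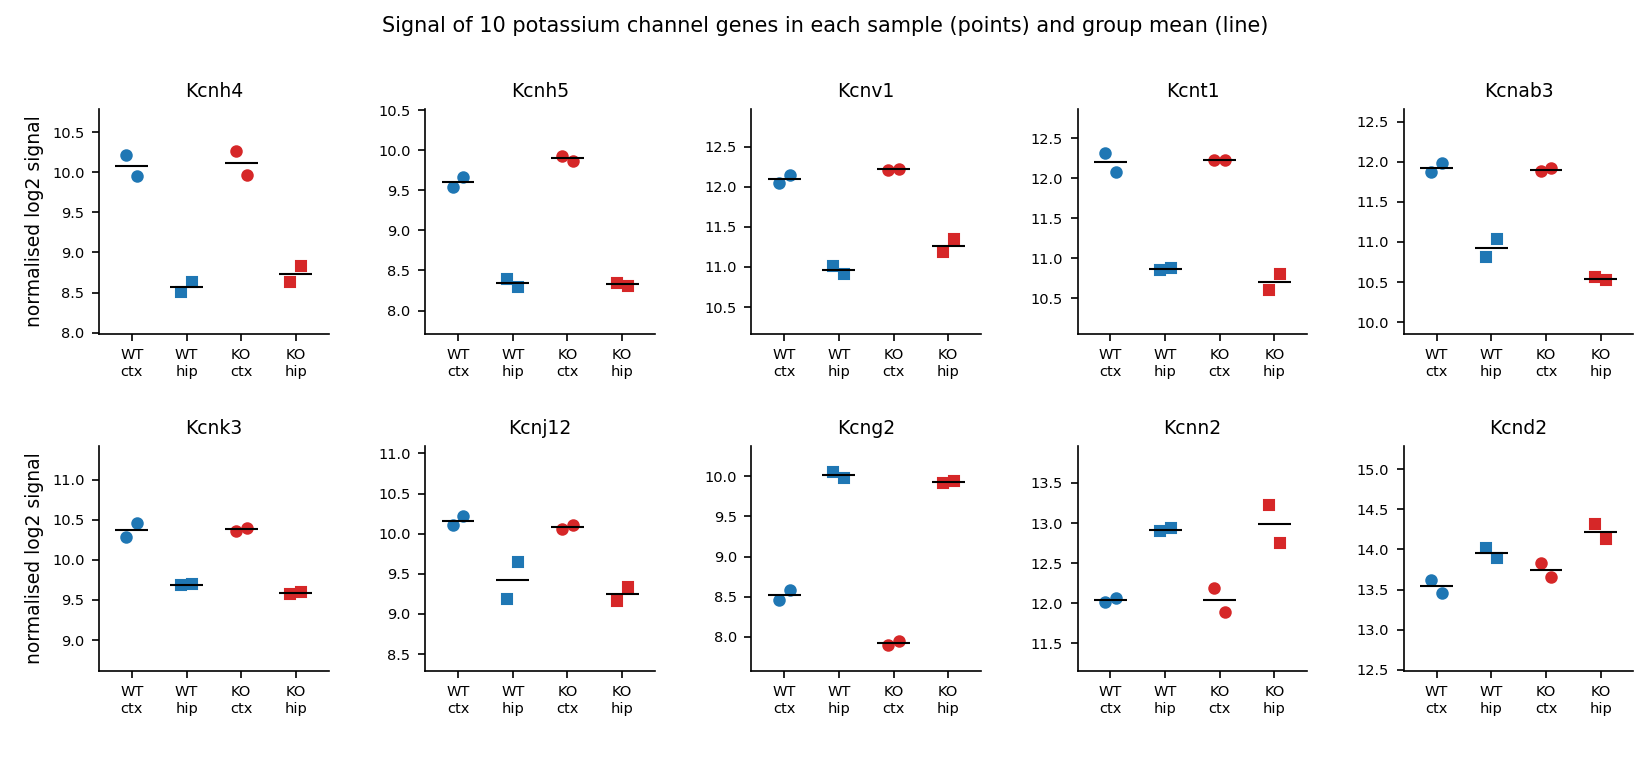
Normalised log2 signal of 10 members in each of the 8 samples (WT in blue, Tet1 KO in red, circles for cortex and squares for hippocampus), with a line at each group mean of 2 samples and the same span on every vertical axis. In each genotype both cortex samples lie above both hippocampus samples for Kcnh4, Kcnh5, Kcnv1, Kcnt1, Kcnab3, Kcnk3 and Kcnj12, and below them for Kcng2, Kcnn2 and Kcnd2.

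Of the 12 partner proteins tested, 2 were higher and 1 lower in cortex in each genotype. This is 25% in each, against 15.0% of all genes in WT and 14.8% in KO. Kcnab3, a cytoplasmic beta subunit of Shaker channels, was at 11.87 and 11.99 in WT cortex, 10.81 and 11.04 in WT hippocampus, 11.88 and 11.92 in KO cortex, and 10.56 and 10.52 in KO hippocampus. All cortex samples were higher, by 1.01 ± 0.09 in WT (adjusted p = 0.000869) and 1.36 ± 0.09 in KO (adjusted p = 0.000289), with any 1 array left out as well. Another beta subunit, Kcnab2, was at 8.45 and 8.49 in WT cortex, 9.31 and 8.81 in WT hippocampus, 8.36 and 8.30 in KO cortex, and 8.94 and 8.69 in KO hippocampus. Both cortex samples were lower than both hippocampus samples in each genotype, by -0.59 ± 0.15 in WT (adjusted p = 0.0447) and -0.48 ± 0.15 in KO (adjusted p = 0.0853), and the WT call was lost without either cortex array or hippocampus replicate 1. Kcnip3, a calcium-binding partner of the Kcnd channels, was higher in cortex by 0.45 ± 0.11 in both WT and KO, while its second probe, well above background in 1 sample, gave 0.00 and 0.07. Kcnip1, Kcnip2 and Kcnip4, of the same family, were called in neither. The single-pass subunit Kcne3 was at 7.42 and 7.57 in WT cortex, 7.55 and 7.57 in WT hippocampus, 7.20 and 7.27 in KO cortex, and 7.53 and 7.60 in KO hippocampus, and was not well above background in WT. It was lower in KO cortex (-0.32 ± 0.08, adjusted p = 0.0327), a call lost without any 1 array.

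Of the 12 inward rectifiers tested, 2 were higher and 1 lower in cortex in each genotype. This is 25% in each, against 15.0% of all genes in WT and 14.8% in KO. The strong rectifier Kcnj12 was at 10.10 and 10.22 in WT cortex, 9.19 and 9.65 in WT hippocampus, 10.05 and 10.11 in KO cortex, and 9.16 and 9.34 in KO hippocampus. The tissues did not overlap, and the difference was 0.74 ± 0.15 in WT (adjusted p = 0.0164) and 0.83 ± 0.15 in KO (adjusted p = 0.0106), both lost without either cortex array. Kcnj4, of the same kind, was higher by 0.69 ± 0.11 and 0.64 ± 0.11. Kcnj6, a G protein-gated rectifier, was at 7.26 and 7.54 in WT cortex, 7.82 and 7.79 in WT hippocampus, 7.48 and 7.56 in KO cortex, and 7.98 and 7.90 in KO hippocampus. It was lower in cortex in both genotypes, by at least 1.22-fold in WT, where 1 hippocampus sample alone was well above background (-0.40 ± 0.10, adjusted p = 0.0386), and by -0.43 ± 0.10 in KO (adjusted p = 0.0317), each lost without any 1 array. Its relatives Kcnj3, Kcnj5 and Kcnj9 were not called. Kcnj11, the pore of ATP-sensitive channels, was at 9.25 and 9.09 in WT cortex, 8.94 and 6.61 in WT hippocampus, 9.14 and 9.32 in KO cortex, and 8.66 and 8.53 in KO hippocampus. The low value of WT hippocampus replicate 2 set its difference of 1.40 ± 0.64 in WT (adjusted p = 0.204), and its second probe gave 0.03.

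Of the 11 two-pore-domain channels tested, 4 were higher and 1 lower in WT cortex, and 3 were higher and 1 lower in KO cortex. Their called shares were 45.5% and 36.4%, against 15.0% and 14.8% of all genes. Voltage-gated subunits leaned the same way. Kcnk3, an acid-sensitive leak channel, was at 10.28 and 10.45 in WT cortex, 9.69 and 9.70 in WT hippocampus, 10.36 and 10.40 in KO cortex, and 9.58 and 9.60 in KO hippocampus. All cortex samples were higher, by 0.68 ± 0.08 in WT (adjusted p = 0.00179) and 0.79 ± 0.08 in KO (adjusted p = 0.00101), also with any 1 array left out. The mechanosensitive and lipid-sensitive channels did not move as one. Kcnk2 was higher in cortex by 0.63 ± 0.08 and 0.40 ± 0.08 in WT and KO, and Kcnk4 by 0.43 ± 0.09 and 0.60 ± 0.09, with 0.22 and 0.42 at its second probe. Their relative Kcnk10 was lower, with 10.41 and 10.33 in WT cortex, 11 and 10.76 in WT hippocampus, 10.10 and 10.24 in KO cortex, and 10.73 and 10.86 in KO hippocampus. In each genotype its tissues did not overlap, and the difference was -0.51 ± 0.11 in WT (adjusted p = 0.0246), lost without either cortex array or hippocampus replicate 1, and -0.63 ± 0.11 in KO (adjusted p = 0.0113), lost without either cortex array.

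Among the 9 calcium- or sodium-activated channels and subunits tested, 2 were higher and 1 lower in WT cortex, and 1 each way in KO. That is 33.3% and 22.2% called, against 15.0% and 14.8% of all genes. Kcnt1, the sodium-activated channel (chr2:25773734-25773793), was at 12.32 and 12.08 in WT cortex, 10.86 and 10.87 in WT hippocampus, 12.23 and 12.23 in KO cortex, and 10.60 and 10.81 in KO hippocampus. Every cortex sample was more than 1 log2 unit above every hippocampus sample of its genotype, and the difference was 1.33 ± 0.11 in WT (adjusted p = 0.000433) and 1.52 ± 0.11 in KO (adjusted p = 0.000281), also with any 1 array left out. Kcnn2, a small-conductance calcium-activated channel on chromosome 18, was at 12.01 and 12.07 in WT cortex, 12.90 and 12.94 in WT hippocampus, 12.19 and 11.90 in KO cortex, and 13.22 and 12.76 in KO hippocampus. It was lower in all cortex samples, by -0.87 ± 0.17 in WT (adjusted p = 0.0150) and -0.95 ± 0.17 in KO (adjusted p = 0.0108), the WT call being lost without either cortex array and the KO call without these or hippocampus replicate 1. Kcnmb4, the neuronal beta subunit of the large-conductance channel, was higher in WT cortex by 0.43 ± 0.08 (adjusted p = 0.0149), and Kcnma1, its pore, differed by 0.09 ± 0.09.

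Of 34 other genes whose proteins associate with potassium channels or act beside them, 31 were tested, and 6 were higher and 3 lower in WT cortex, or 5 and 3 in KO cortex, beside the 15.0% and 14.8% of all genes that were called. Dpp10 and Dpp6, which both attach to Kcnd channels, went opposite ways, with differences of 1.90 ± 0.21 and -0.56 ± 0.08 in WT and 1.70 ± 0.21 and -0.39 ± 0.08 in KO. Lrrc55 and Lrrc38, auxiliary subunits of the large-conductance channel, were higher in WT cortex by 0.82 ± 0.08 and 0.57 ± 0.09. The scaffold Dlg1 and Gnb5 were higher too, and Gng2 and Lgi1 lower. The list's median difference was 0.05 in WT and 0.08 in KO.

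Between KO and WT within 1 tissue, 0 members were called, and so were almost no genes. In cortex 0.0596% of all genes passed and in hippocampus 0.0179%, while 14 and 18 members (17.3% and 22.2%) had an unadjusted limma p under 0.05, against 21.1% and 23.7% of all genes. The median log2 ratio of the members was 0.05 in cortex and 0.03 in hippocampus, against 0.04 and 0.02 over all genes, and with each array centred on its median in place of loess it was 0.48 and 0.47, against 0.54 and 0.53 over all genes. With 2 arrays a tissue the median member's 95% interval reached 0.23 to each side in cortex and 0.23 in hippocampus, so differences of that size were within the error. Single-channel fits, which keep the array as a random block, called 2 members in cortex and 3 in hippocampus. That change of fit applies to every gene, and without the share of all genes called these counts show nothing particular to the members.

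Averaged over the tissues, 4 members were higher in KO (Kcna4, Kcnh7, Kcnh8 and Kcnd2) and 2 lower (Kcne4 and Kcng2). These 6 are 7.41% of the members tested, against 10.9% of all genes (7.12% higher and 3.78% lower). Their share is thus below that of all genes. Kcnh7, Kcnh8 and Kcne4 had no WT sample well above background, so their ratios rest on an unmeasured WT side. Among the 58 members well above background in all 8 samples, 3 (5.17%) were called, against 7.67% of the 12759 genes measured so. The calls need all 4 arrays and were lost when any 1 was left out, which leaves 1 array in a tissue. Almost all calls of other genes were lost with them, so this loss is not particular to the members. The 6 calls were also lost to 2 other choices. With outlying local backgrounds kept as deposited 0 members were called, and 0 when the spread was allowed to follow intensity and estimated robustly at once. Without the share of all genes called under these choices, this loss shows nothing particular to the members.

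Kcna4, an A-type Shaker channel (chr2:107138207-107138266), had log2 ratios of KO over WT of 0.25 and 0.46 in cortex and 0.31 and 0.53 in hippocampus. It was higher in KO on all 4 arrays, by 0.39 ± 0.07 in the mean (n = 4 arrays, adjusted p = 0.0410). Kcnd2, also an A-type channel, had ratios of 0.21 and 0.20 in cortex and 0.30 and 0.24 in hippocampus. These were the most even of the called members, with a mean of 0.24 ± 0.04 (adjusted p = 0.0453). Kcnh7 had ratios of 0.42 and 0.30 in cortex and 0.34 and 0.32 in hippocampus, and a mean of 0.35 ± 0.05 (adjusted p = 0.0318). Its WT samples were not well above background. In cortex the 1.28-fold of Kcnh7 is the measured ratio across the dyes and no lower bound, and in hippocampus there was no fold to give. With each array centred on its median its mean ratio was 0.18, below the 0.53 of all genes so treated. Kcnh8, an ELK channel, had ratios of 0.21, 0.43, 0.38 and 0.22 in the same order (mean 0.31 ± 0.06, adjusted p = 0.0484). Its WT signal was not well above background, which allows no fold, its other 2 probes gave -0.09 and 0.00, and with each array centred on its median in place of loess its ratio was -0.40.

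The members lower in KO were less even. Kcne4, a single-pass subunit that inhibits Shaker channels, had ratios of -0.34 and -0.17 in cortex and -0.44 and -0.54 in hippocampus. It was lower in KO on all 4 arrays (mean -0.37 ± 0.05, adjusted p = 0.0337), but its WT samples were not well above background, which leaves no fold to give, and its second probe gave 0.10. Kcng2 had ratios of -0.55 and -0.64 in cortex and -0.13 and -0.03 in hippocampus. Its mean was -0.34 ± 0.05 (adjusted p = 0.0333), with each array centred on its median it was -0.04 (adjusted p = 0.652), its cortex ratio was -0.59 ± 0.07 (adjusted p = 0.0846) and its hippocampus ratio -0.08 ± 0.07. The second Kcng2 probe, measured in all 8 samples, went the other way, with 0.11 in cortex and 0.27 in hippocampus.

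Of the 5 members with the largest mean ratios among those of 1 direction on all 4 arrays, Kcna4 and Kcne4 passed the test and the following 3 did not. Kcnj2, a strong inward rectifier, had ratios of 0.14 and 0.65 in cortex and 0.46 and 0.70 in hippocampus, with a mean of 0.49 ± 0.10 (adjusted p = 0.0532), and 1 of its 4 WT samples was well above background. With each array centred on its median, Kcnj2 was at 0.13, below the 0.53 of all genes. Kcnj9, a G protein-gated rectifier, had ratios of 0.86 and 0.11 in cortex and 0.46 and 0.14 in hippocampus, high on the arrays of replicate 1 (mean 0.39 ± 0.14, adjusted p = 0.133). Kcna3, a Shaker channel, had ratios of 0.24 and 0.34 in cortex and 0.08 and 0.74 in hippocampus (mean 0.35 ± 0.12, adjusted p = 0.120, and 0.47 with arrays centred on their medians, also below that of all genes). Across the 81 members, 22 (27.2%) were higher and 10 (12.3%) lower in KO on all 4 arrays, against 28.1% and 17.6% of all genes tested. By subfamily, the median ratio was 0.13 for inward rectifiers, 0.11 for calcium- or sodium-activated channels, 0.08 for voltage-gated and 0.07 for two-pore-domain channels, -0.12 for partner proteins and 0.03 for all genes. Of the other genes that act with potassium channels, Hcn3 (0.31 ± 0.06) and Vapb (0.26 ± 0.05) were higher in KO and Dlg4 (-0.32 ± 0.06) and Lrrc55 (-0.23 ± 0.05) lower, with adjusted p-values of 0.0416 to 0.0484.

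**Figure D3:**
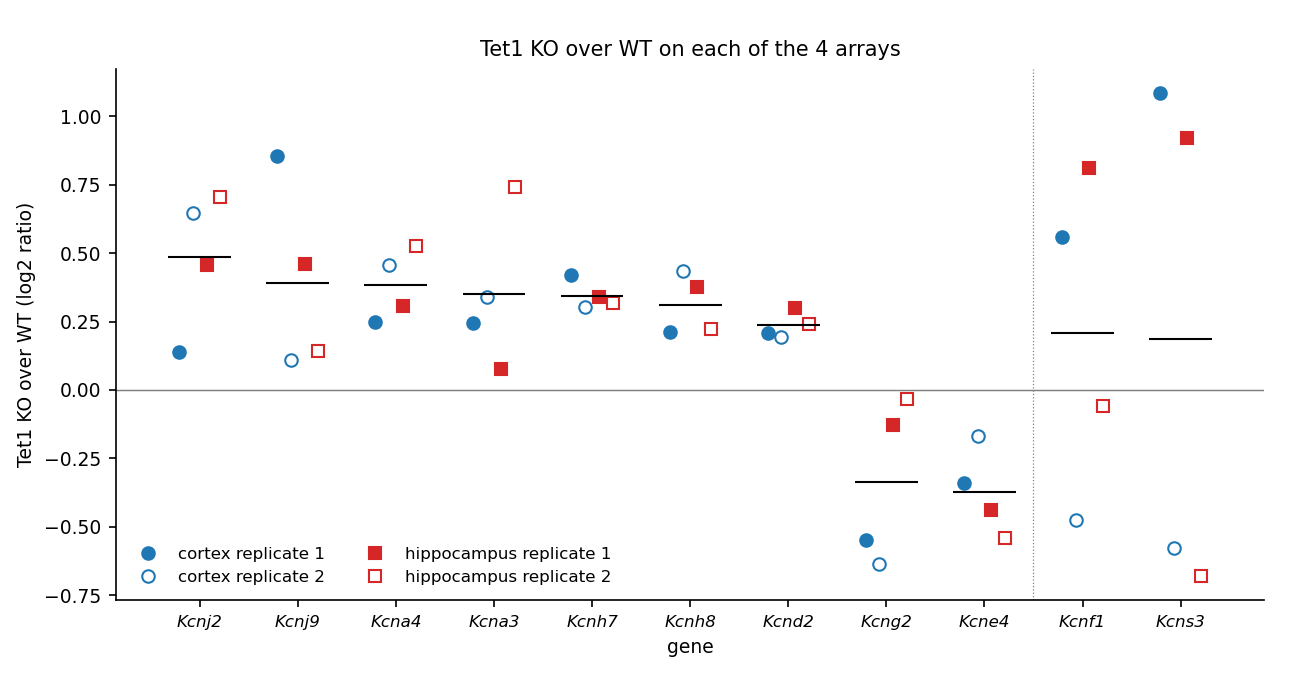
Log2 ratio of Tet1 KO over WT for 11 members on each of the 4 arrays (blue circles for cortex, red squares for hippocampus, filled for replicate 1 and open for replicate 2), with a line at the mean of both tissues. The 9 members left of the dotted line keep 1 direction on all 4 arrays, and Kcnf1 and Kcns3 to its right are above 0 on both arrays of replicate 1 and below 0 on both of replicate 2.

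The ratio of KO over WT was then compared between the tissues, which asks whether it differs in size between them. The test of cortex ratio minus hippocampus ratio called 0 members and 0% of all genes, with 6 members (7.41%) with an unadjusted limma p under 0.05, against 4.47% of all genes. The largest of the 6 was that of Kcng2, at -0.51 ± 0.10 (unadjusted p = 0.00402, adjusted p = 1.0), for which the probes disagree. Kcnab3, Kcnh5 and Kcnc2 had differences of 0.35 ± 0.13, 0.31 ± 0.11 and 0.31 ± 0.11, and Kcne3 and Kcnk2 of -0.25 ± 0.09 and -0.23 ± 0.09.

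Kcne2, a single-pass subunit that is abundant in the choroid plexus, varied more between samples than any tested member. It was at 10.36 and 7.46 in WT cortex, 6.37 and 11.25 in WT hippocampus, 11.27 and 10.40 in KO cortex, and 7.12 and 7.01 in KO hippocampus. The 2 samples of a WT group thus lay on opposite sides of the range, and the KO tissue difference of 3.77 ± 1.56 was not called (adjusted p = 0.169). The 12 choroid plexus markers varied with it: their summed log2 signal was 17.3 to 18.7 in the 4 samples where Kcne2 was above 10 and 14.8 to 15.3 in the other 4. On single arrays the markers' median log2 ratio of KO over WT was 0.54 and 2.11 in cortex and 0.08 and -2.87 in hippocampus, and that of Kcne2 was 0.91 and 2.94 in cortex and 0.76 and -4.24 in hippocampus. The part of this tissue in the values of Kcne2 was not tested.

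**Figure D4:**
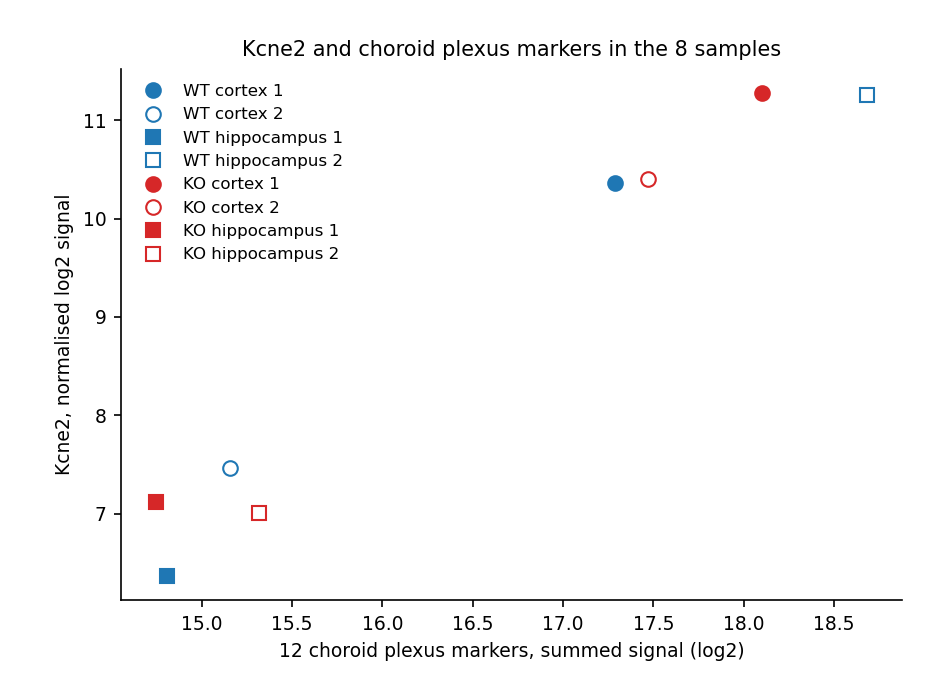
Normalised log2 signal of Kcne2 against the log2 of the summed signal of 12 choroid plexus markers in the 8 samples (WT in blue, Tet1 KO in red, circles for cortex, squares for hippocampus, filled for replicate 1 and open for replicate 2). WT cortex 1, KO cortex 1, KO cortex 2 and WT hippocampus 2 lie at the upper right and the other 4 samples at the lower left.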

How the data were processed

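RNA of 8 samples (4 groups of 2) was measured on 4 two-colour arrays of 1 slide from 0.5 µg of input. Each array yielded spot and local background intensities, with no correction per the file headers (Feature Extraction 10.1.1.1, probe positions on mm9). The authors' deposited table holds log2 values per channel (column medians 8.21 to 8.25), whose ratios correlated at 0.938 to 0.967 with the loess ratios computed here; the submitters' processing notes name limma, but its role, background correction and normalisation were not given in the sources used here.

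From the intensities, local backgrounds marked as outlying were replaced by the array's median (a choice known to matter from earlier results), followed by normexp (offset 50), loess within arrays (span 0.3) and Aquantile between arrays. Control spots (1377 of 44397) had loess weight 0 and were left out after normexp, and spots of 1 probe were averaged. A gene was its brightest probe and was tested where that probe was well above background on both arrays of a group. Tissues were compared within a genotype, hence within a dye, with lmscFit and eBayes on the 8 channels (intraspot correlation 0.191, kept when an array was left out, and 4 residual plus 2.92 prior degrees of freedom). KO was compared with WT on the 4 log ratios with lmFit and eBayes (2 plus 2.62). Values per sample are after Aquantile and ratios per array after loess. P-values were adjusted by Benjamini-Hochberg over the 16773 genes, and called means under 0.05. Tools were R 4.3.3, limma 3.58.1, statmod 1.5.0 and the data.table package (version 1.17.8). Tested on simulated data of 16773 genes, the fits returned every planted change of both sizes in the tissue comparisons and the mean of both tissues. The planted changes were larger than the KO ratios of the called members, and every simulated gene had the same spread. The simulation thus checks the code and not the power for these data.

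Of the 93 members, 92 matched RefSeq by accession and 33 had several probes, 134 in all. Given in every sample are the 10 called members with the largest rise and fall between tissues in the same direction in both genotypes, the largest tissue difference in each subfamily, the members called between KO and WT and, where fewer than 5 were, the 5 largest ratios of 1 direction; Kcna1 and other members given besides were chosen with their values known. Members and lists were chosen with earlier results of these data known. Certain names are not reported here. The number of arrays limits the precision.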

Additional observations from a re-analysis of the deposited data

How the results depend on the processing

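The 6 counts of members called were recomputed under every alternative, and 75 recomputed counts stayed within 1.5 times of the value reported while 21 did not. These counts are of members alone, with no share of all genes called beside each, so they show only how stable the calls are. For cortex against hippocampus, 30 members in WT and 27 in KO became 20 to 29 and 23 to 35 under other signals, filters, probes, spreads and blocks, apart from the authors' deposited table, which gave 30 and 29. Without 1 array they ranged from 8 to 24 in WT and from 8 to 28 in KO, and the KO mean of both tissues from 0 to 0. That mean, 6 members, became 0 with outlying backgrounds kept (13 at an unadjusted p under 0.05 in limma), 0 with an intensity trend and robust estimation (32), 3 with an offset of 10, 3 with the strict filter on dim probes and 14 with the array as a random block. This random block gave 2 members in cortex and 3 in hippocampus. The split of the 6 was 4 higher and 2 lower, against 6 and 0 with the mean of a gene's probes and 2 and 2 with Feature Extraction's processed signals, which also gave 1 member in hippocampus. Centring arrays on their median in place of loess moved the median ratio of all genes from 0.04 to 0.54 in cortex and from 0.02 to 0.53 in hippocampus, with 67 members called in cortex, 60 in hippocampus, 69 in the mean and 1 between the tissues. Against the median of all genes so treated, 37 members lay above and 44 below in cortex, and 31 and 50 in hippocampus. The counts under this centring are thus not particular to the members. With arrays so centred the ratio of Kcnh8 reversed from 0.31 to -0.40. The cause was not tested. Among the named members, 567 recomputed values kept their direction and side of the threshold, 147 lost a call, 8 gained one and 1 reversed.

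With the replicate number as a block, 23 members were called in WT, 25 in KO, 8 in the mean of both tissues and 0 in each tissue or between the tissues. With no replicate block, on single-channel values without the array, 1 was called in cortex, 0 in hippocampus (19 at an unadjusted p under 0.05 in limma) and 7 in the mean. No share of all genes called stands beside these counts either, so they show nothing particular to the members. Same-numbered samples deviated together with correlations of -0.0765 in WT and 0.244 in KO, so the numbers were not taken to pair them. Signal over background limits the WT side most: 15 tested members were not well above background in any WT sample.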

Other observations

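Cell type markers other than those given with the results differed between the samples as well. Inhibitory interneuron markers were higher in cortex, with medians of 0.27 in WT and 0.27 in KO and 3 and 4 of 10 called. The microglia markers had a median KO over WT ratio of -0.14 in the mean of both tissues, with 3 of 10 called lower and 1 of 10 above 0. Markers of oligodendrocytes had a median of -0.13, of astrocytes -0.07, of endothelial and mural cells -0.14 and of thalamus -0.29, with 0, 0, 1 and 1 called lower. Their part in the channel genes' values was not tested.

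In some members, as in some of all genes, the sign of the ratio followed the replicate number. The pattern was chosen after the values were seen, and the share of members with it was not far from that of all genes. The log2 ratio of KO over WT had one sign on both arrays of replicate 1 and the other on both of replicate 2 for 9 of the 81 members (11.1%), against 7.93% of 16773 genes. With a difference over 0.5 in addition there were 4 members (4.94%), against 219 genes (1.31%). Kcns3, a silent subunit, had ratios of 1.09 in cortex and 0.92 in hippocampus on replicate 1, and of -0.58 and -0.68 on replicate 2. Its difference of 1.63 between the numbers ranked 20 by size among all genes. Kcnf1 had ratios of 0.56 and 0.81 on replicate 1 and of -0.48 and -0.06 on replicate 2. Kcnj14 had 0.28 and 0.15, then -0.54 and -0.53. Kcnj11 had -0.12 and -0.28, then 0.23 and 1.92, the last of them from the 1 low WT hippocampus sample.

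Kcns3 and Kcnf1 lie on the same stretch of chromosome 12. Of 66 tested genes between 4 and 25 Mb of it (mm9), a window also chosen after the values were seen, 7 (10.6%) met the same condition: Atp6v1c2, Gm4419, 2410018L13Rik, Hpcal1 and Iah1 besides the 2 channel genes. Atp6v1c2 had the opposite sign to Kcns3, with ratios of -1.19 and -1.18 on replicate 1 and of 0.29 and 0.80 on replicate 2. No test was run on this window.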
